A study of Homo sapiens with 9 samples.

Results

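The genes described here are 45 human genes of DNA excision, mismatch and crosslink repair, taken from a list by symbol. A gene was a member where the array held a probe set annotated to that symbol alone, and the probe set of highest mean signal over the 9 arrays stood for it. All 45 were found, of 19775 genes with such a probe set, and together they had 104 probe sets. No measured value was used to choose them, but they were chosen with earlier results of these data known. RNA came from HEK293, an established human embryonic kidney cell line, and was measured on 1 oligonucleotide array per sample in 3 groups of 3. The labels call the groups Wild type, Over Expression and Knock Down. Wild type cells had no treatment, Over Expression cells carried a plasmid for hMOF, and Knock Down cells received siRNA against hMOF. hMOF is the product of KAT8, the acetyltransferase of lysine 16 of histone H4, and the series title connects it with the response to DNA damage. The labels name no DNA-damaging agent for any group. The wild type cells were not transfected, and the EGPF dsRNA samples that the design text names are not among the 9 arrays. In each comparison with wild type the transfection and the change in hMOF therefore cannot be told apart. Knockdown against overexpression sets siRNA against a plasmid, so there the reagent and the hMOF level cannot be told apart either. The labels do not say that replicates were separate cultures, so the p-values cover only the variation among these arrays, part of which may be technical.

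Nucleotide excision repair removes bulky lesions: damage is recognised in the genome or by a stalled RNA polymerase, the helicase complex TFIIH opens the duplex, and nucleases cut out the damaged strand on either side of the lesion. Base excision repair starts with a glycosylase that removes an altered base, after which an endonuclease, a polymerase and a ligase rebuild the strand. Mismatch repair corrects errors of replication, and the Fanconi pathway unhooks crosslinks between the strands with the help of a ubiquitin ligase core complex. MGMT removes alkyl groups directly. Dividing cells keep most of these genes expressed at all times, since lesions also arise without an external agent.

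KAT8 checked the labels. Its signal was 2909.5, 3797 and 3249 in the wild type arrays, 4594, 4727 and 4763 after overexpression and 432, 706 and 517 after knockdown, with no overlap between groups. These values are from the brighter of its 2 tested probe sets, and the other is not given here. The knockdown left 16.4% of the wild type level (a fitted change of log2 -2.61 ± 0.17, where ± gives the SE beside every fitted change, limma adjusted p = 4.72e-05), and overexpression gave log2 0.51 ± 0.17 (limma adjusted p = 0.259, which missed the threshold of 0.05). The sources used here do not say whether the plasmid's insert holds the sequence this probe set reads. The exact two-sided permutation test over 3 against 3 arrays gave p = 0.1, the smallest it allows. All 8 markers of the HEK293 line lay above the filter on dim probe sets, and after knockdown PAX2 and KRT8 were lower and LIN28B was higher than in wild type. Of 10 markers of fibroblasts, blood and liver, 2 did (COL1A1 and COL3A1), with a summed signal of the 10 from 3015.3 to 3592.7 in wild type, 3010.0 to 4066.2 after overexpression and 2140.0 to 2697.9 after knockdown. The summed signal of 19 S phase genes was 352183 to 362313 in wild type, 357452 to 365425 after overexpression and 367223 to 379637 after knockdown. Bright genes weigh most in this sum. The median fitted change of the 19 for knockdown against wild type was 0.003 log2 units, with 10 of them above 0. The 3 replicate 1 arrays, 1 of each group, stood apart from the others in the added poly-A control transcripts, which were 2.23-fold brighter in replicates 2 and 3. The part of these shifts in the results below was not tested, and in bulk RNA fewer cells of a type and less RNA per cell cannot be told apart.

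CETN2, ERCC4 and ERCC8 were lower in the knockdown cells than in either other group, and PARP2, GTF2H4, FAN1, RAD23B and FANCE passed a test in 1 comparison each. All genes leaned the same way, with more called lower than higher after knockdown. Of the 45 members, 44 passed the filter on dim probe sets, which kept those at or above the median of all probe sets (a mean signal of about 188). MGMT did not pass it. A gene was called changed where limma's adjusted p over all 27307 probe sets tested was under 0.05. After overexpression 0 of 44 members passed the limma test, against 0.631% of 12036 genes. An unadjusted p under 0.05 was reached by 6 members, near the share of all genes at that level (14%). After knockdown, compared with wild type, 4 members fell (CETN2, ERCC4, ERCC8 and PARP2) and 0 rose. This is 9.09% of the members called, against 19.4% of all genes (6.7% higher and 12.7% lower). Between knockdown and overexpression 5 members were lower (CETN2, ERCC4, ERCC8, GTF2H4 and FAN1) and 2 were higher (RAD23B and FANCE). This is 15.9% of the members, against 18.4% of all genes (6.22% higher and 12.1% lower). The comparisons share arrays, so their counts are not independent of one another.

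The typical change was small. The median fitted change of the 44 members was -0.01 on the log2 scale in each of the 3 comparisons, where the median of all genes was 0.000318 after overexpression, -0.04 for knockdown against wild type and -0.05 for knockdown against overexpression. The median size of the change, without its sign, was 0.121 log2 units for knockdown against wild type, where that of all genes was 0.225. For knockdown against overexpression it was 0.182, where that of all genes was 0.225, and for overexpression against wild type it was 0.102, where that of all genes was 0.139. Fitted changes ran from -0.69 (ERCC8) to 0.30 (LIG3) for knockdown against wild type. A change under 0.25 log2 units in either direction was fitted for 35 of the 44 members after overexpression, for 32 in knockdown against wild type and for 26 in knockdown against overexpression. The median SE of a fitted change was 0.13 log2 units.

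A second way to read the same arrays is to ask whether the 3 signals of one group all lay above or below those of the other. This held for 10 of 44 members after overexpression (22.7%, against 19.1% of all genes), for 14 after knockdown (31.8%, against 39%), and for 18 between knockdown and overexpression (40.9%, against 37.9%). Of the 14, CETN2, ERCC4, ERCC8, SMUG1, POLB, PARP2, MSH6, FANCF, FANCG and FAN1 lay lower in every knockdown array, and RAD23B, APEX1, FANCB and FANCE lay higher. Deviations from the group means correlated between arrays of the same replicate number, at 0.137 to 0.362 for knockdown and wild type and 0.106 to 0.352 for knockdown and overexpression. Between arrays of different numbers these correlations ran from -0.28 to 0.18 and from -0.28 to 0.089. The same-number values were highest for replicate 1, and for knockdown and wild type a pair of replicates 2 and 3 correlated more than the same-number pairs of replicates 2 and 3 did. The fit was repeated with the replicate number as a block. With the replicate block 10 of 44 members were called for knockdown against wild type, 4 higher and 6 lower, against 33.4% of all genes. With the replicate block 14 were called for knockdown against overexpression, 4 higher and 10 lower, against 32.6% of all genes. All members called without the block were among those called with it.

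**Figure D1:**
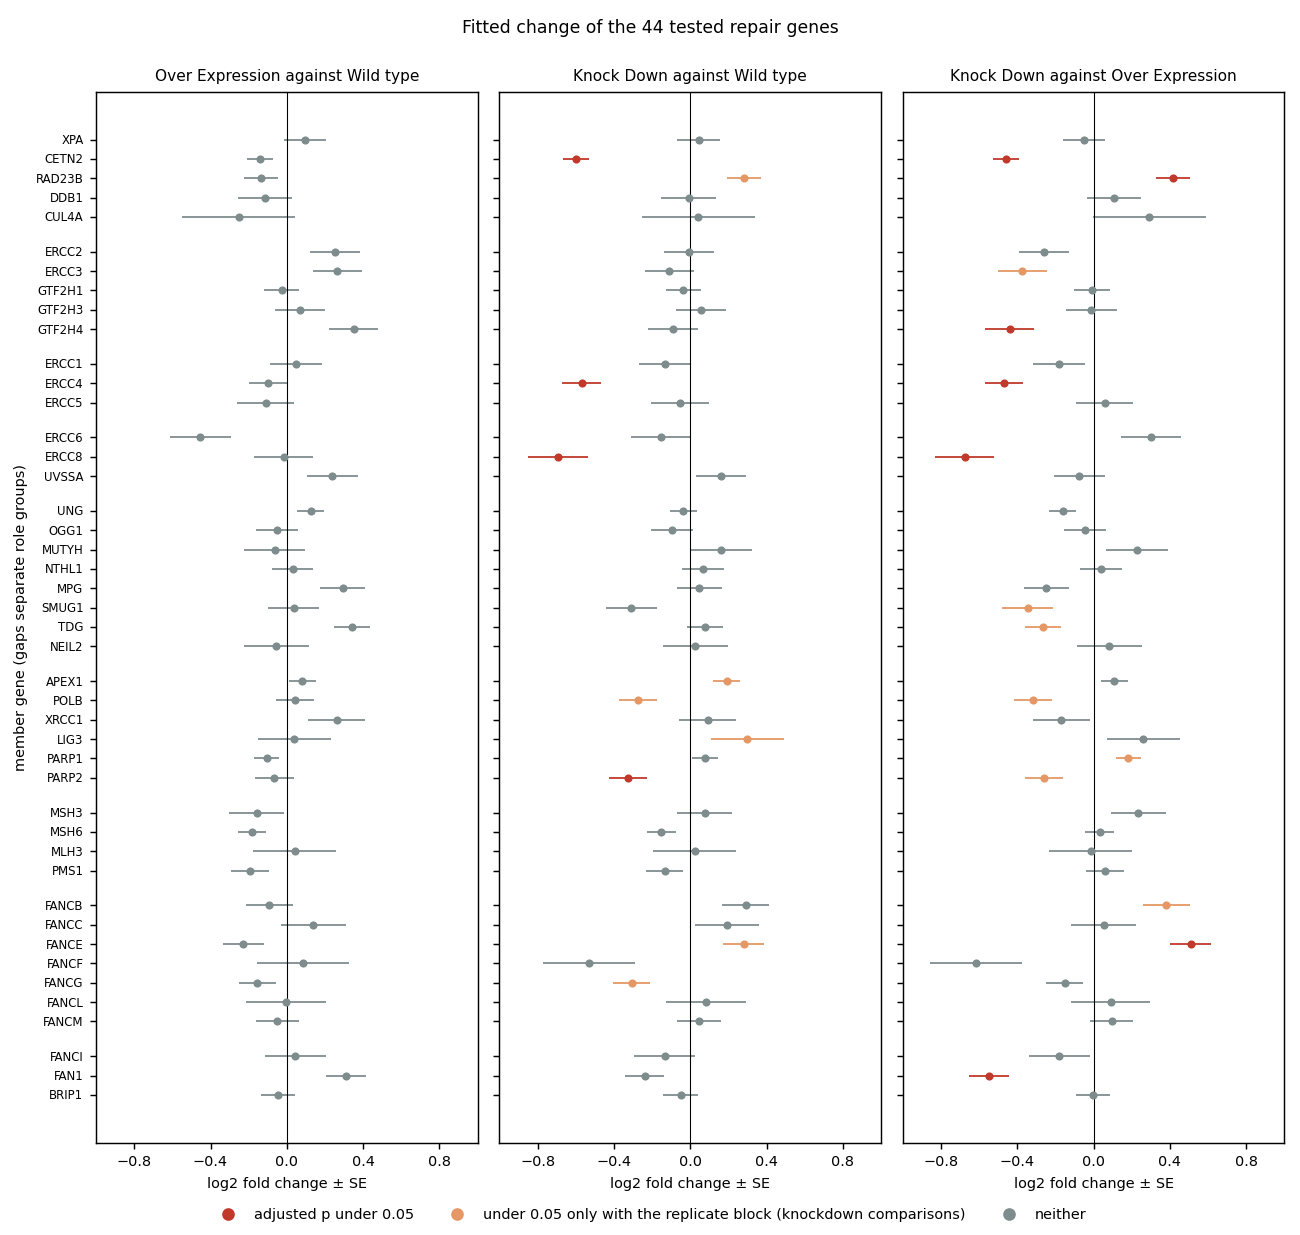
Fitted log2 fold change (horizontal axis, with its SE) of the 44 tested members (vertical axis, grouped by role) in the 3 comparisons; red points passed the test and orange points passed it only with the replicate block, which is shown for both knockdown comparisons. No member is red after overexpression, CETN2, ERCC4, ERCC8 and PARP2 are red to the left of 0 for knockdown against wild type, and RAD23B and FANCE are red to the right of 0 for knockdown against overexpression.

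Among the 5 genes that recognise damage for nucleotide excision repair, CETN2 fell and RAD23B was higher in the knockdown arrays. CETN2, the centrin that binds the damage sensor XPC and also sits at centrosomes, had signals of 14463, 13897 and 14379 in wild type, 13136, 12357 and 13258 after overexpression and 9506, 9230.2 and 9467 after knockdown. Every knockdown array was below every other array, and the overexpression arrays were all below the wild type arrays. The knockdown level was 66% of wild type (log2 -0.60 ± 0.07, limma adjusted p = 0.000448) and 72.8% of overexpression (log2 -0.46 ± 0.07, limma adjusted p = 0.00202). Overexpression against wild type gave log2 -0.14 ± 0.07 and missed the threshold (limma adjusted p = 0.44). Within replicate numbers the knockdown lay below wild type by nearly the same amount, with log2 differences of -0.61, -0.59 and -0.60.

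RAD23B, the ubiquitin receptor that stabilises XPC, had signals of 24243, 20823 and 20227 in wild type, 20939, 18414 and 20001 after overexpression and 28288, 24848 and 26155 after knockdown. The 3 knockdown arrays were the highest of the 9, while wild type and overexpression overlapped. The knockdown level was 134% of overexpression (log2 0.42 ± 0.09, limma adjusted p = 0.0106). Against wild type the change was log2 0.28 ± 0.09 with a limma adjusted p of 0.0517, which passed with the replicate block (0.00386) and without wild type replicate 1 (0.021). XPA, the scaffold that verifies damage, and DDB1 and CUL4A, the adaptor and the cullin of the ubiquitin ligase that senses ultraviolet lesions, passed no test. XPA ranged from -0.05 to 0.09 log2 units over the 3 comparisons. DDB1 was at 19521, 12499 and 19269 after overexpression, so its replicate 2 array lay apart from the other 8 arrays, which held 17382 to 19521. CUL4A had the widest spread of the 44 members (SE 0.30 log2 units): its replicate 1 arrays held 1959, 1366 and 1776, below all 6 arrays of replicates 2 and 3.

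The TFIIH genes showed no call for knockdown against wild type, with changes from -0.11 (ERCC3) to 0.06 (GTF2H3) log2 units. GTF2H4, the p52 subunit that anchors the XPB helicase, had signals of 2024, 2117 and 1596 in wild type, 2517, 2241 and 2511 after overexpression and 1662, 1808 and 1888 after knockdown. The overexpression arrays were the 3 highest, and wild type and knockdown overlapped. Knockdown was lower than overexpression by log2 -0.44 ± 0.13 (limma adjusted p = 0.0434), and this call was lost whichever single array of these groups was left out, with adjusted p from 0.0545 (without overexpression replicate 2) to 0.133 (without overexpression replicate 3). It had the highest fitted change of the members after overexpression (log2 0.35 ± 0.13, limma adjusted p = 0.304), short of the threshold. ERCC3, the XPB helicase, had signals of 4454, 3461 and 3566 in wild type, 5085, 4332 and 4323 after overexpression and 3834, 3114 and 3669.5 after knockdown. Knockdown lay below overexpression in all arrays (log2 -0.37 ± 0.13), with a limma adjusted p of 0.075 that became 0.00464 with the replicate block. ERCC2, the XPD helicase, was at -0.26 log2 units for the same pair of groups, and GTF2H1 and GTF2H3, both structural subunits, at -0.01 each.

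The nucleases and the genes of transcription-coupled repair each held a member that fell after knockdown. ERCC4, the XPF catalytic subunit of the nuclease that cuts on the 5′ side of the lesion, had signals of 2703, 2501 and 2844 in wild type, 2419, 2474 and 2615 after overexpression and 1902, 1726 and 1793 after knockdown. All 3 knockdown arrays were below the 6 others, and wild type and overexpression overlapped. The knockdown level was 67.4% of wild type (log2 -0.57 ± 0.10, limma adjusted p = 0.00454), a call kept without any single array. Against overexpression it was 72.2% (log2 -0.47 ± 0.10, limma adjusted p = 0.0116), a call lost without overexpression replicate 3 (0.0561) and without knockdown replicate 2 (0.0512). The partner of ERCC4 in that nuclease, ERCC1, was at log2 -0.13 ± 0.14 against wild type by its brightest probe set, with groups that overlapped. ERCC5, the XPG nuclease of the 3′ side, was at log2 -0.05 ± 0.15.

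ERCC8, the CSA subunit of the ubiquitin ligase that acts on stalled RNA polymerase, had signals of 2535, 1659 and 1969 in wild type, 2073, 1965 and 1963 after overexpression and 1421, 1178 and 1171 after knockdown. The knockdown arrays were the 3 lowest, and the wild type arrays had the widest spread of the 3 groups. The knockdown level was 61.9% of wild type (log2 -0.69 ± 0.16, limma adjusted p = 0.0135), the lowest fitted change among the members in that comparison. It was 62.6% of overexpression (log2 -0.68 ± 0.16, limma adjusted p = 0.0155). Both calls were lost without knockdown replicate 2 (adjusted p = 0.0521 and 0.0591) or replicate 3 (0.0548 and 0.0616), and the second without overexpression replicate 3 (0.0519). ERCC6, the CSB translocase that recruits this ligase, did not pass a test. It was at 779, 888 and 848 in wild type and 567, 735 and 548 after overexpression, the lowest fitted change of the members after overexpression (log2 -0.45 ± 0.16, limma adjusted p = 0.281). UVSSA, which brings TFIIH to the stalled polymerase, was between -0.08 and 0.24 log2 units in the 3 comparisons.

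**Figure D2:**
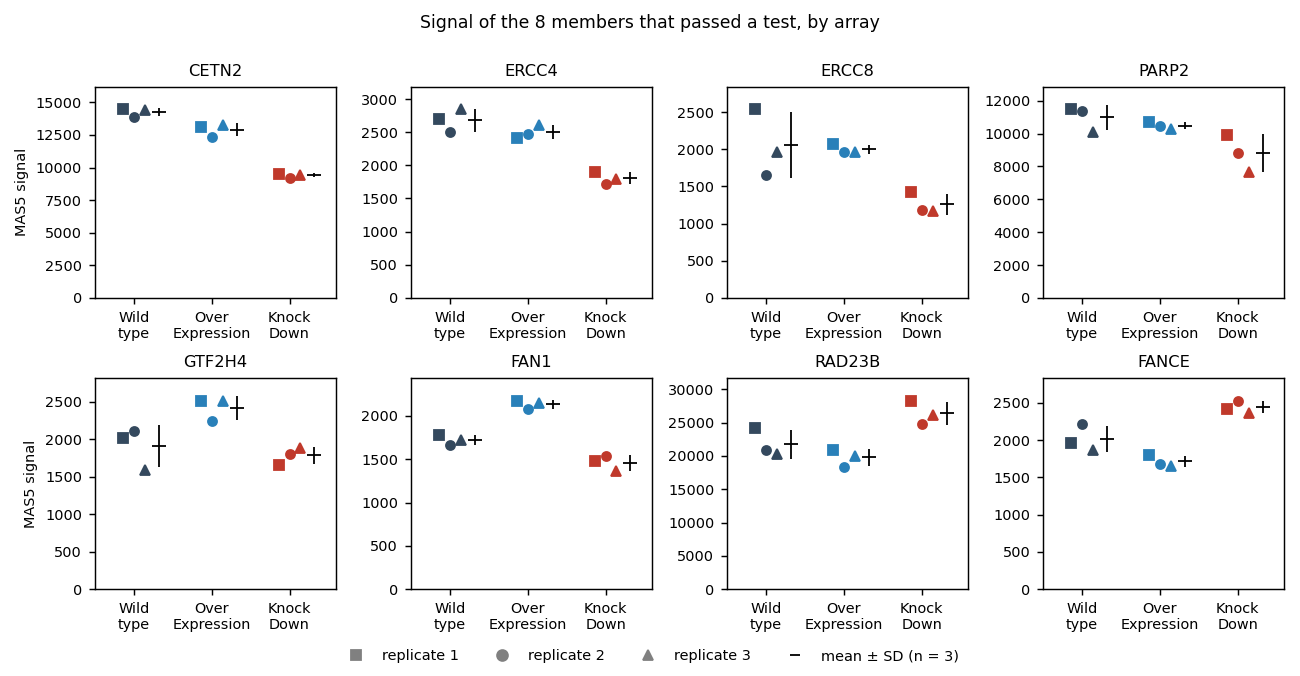
MAS5 signal (vertical axis, linear, from 0) of the 8 members that passed a test in any comparison, by group (horizontal axis); each symbol is 1 array, its shape gives the replicate number, and the bar is the mean ± SD of 3 arrays. The 3 knockdown arrays lie below the 6 others for CETN2, ERCC4, ERCC8, PARP2 and FAN1 and above them for RAD23B and FANCE, while for GTF2H4 the knockdown arrays overlap those of wild type.

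None of the 8 DNA glycosylases passed the limma test in any comparison. In knockdown against wild type 1 of the 8 had an unadjusted p under 0.05, where 34.7% of all genes did, and their changes ran from -0.31 (SMUG1) to 0.16 (MUTYH) log2 units. SMUG1, which removes uracil, had signals of 3151, 2413 and 2457 in wild type, 2977, 2432 and 2785 after overexpression and 1946, 2319.6 and 2172 after knockdown, so the knockdown arrays were the 3 lowest. Its change was log2 -0.31 ± 0.13 against wild type (limma adjusted p = 0.145) and -0.35 ± 0.13 against overexpression (0.11, or 0.0486 with the replicate block). TDG, which excises thymine from mismatches and takes part in DNA demethylation, had signals of 11036, 11080.5 and 9181 in wild type, 12404, 14224 and 12942 after overexpression and 10582, 10742 and 11598 after knockdown. The overexpression arrays were the 3 highest for TDG, at log2 0.34 ± 0.09 against wild type (limma adjusted p = 0.178), and wild type and knockdown overlapped. Knockdown was at log2 -0.26 ± 0.09 against overexpression (limma adjusted p = 0.0864, or 0.03 with the replicate block), but the gene's other probe set was at 0.03 with groups that overlapped. MPG, which removes alkylated purines, was also higher in every overexpression array than in every wild type array (log2 0.29 ± 0.12, limma adjusted p = 0.343). UNG, OGG1, MUTYH, NTHL1 and NEIL2, which remove uracil or oxidised bases or the bases opposite them, stayed between -0.16 and 0.23 log2 units in all 3 comparisons.

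Of the 6 genes that act after the glycosylase, PARP2 passed the test. PARP2, a poly(ADP-ribose) polymerase that signals strand breaks, had signals of 11477, 11378 and 10112 in wild type, 10739, 10466 and 10271 after overexpression and 9946, 8816 and 7658 after knockdown. The knockdown arrays were the 3 lowest, and the highest of them lay just under the lowest wild type array. The knockdown level was 79.8% of wild type (log2 -0.33 ± 0.10, limma adjusted p = 0.0491), and the call was kept with 1 of the 6 arrays left out (knockdown replicate 1). It was lost without wild type replicate 1 (0.113), replicate 2 (0.151) or replicate 3 (0.0538) and without knockdown replicate 2 (0.116) or replicate 3 (0.17). Against overexpression PARP2 was at log2 -0.26 ± 0.10 (limma adjusted p = 0.108, 0.0151 with the replicate block and 0.0423 without knockdown replicate 1). Its paralogue PARP1 was at log2 0.08 ± 0.07 against wild type. Against overexpression PARP1 was at 0.18 ± 0.07 (limma adjusted p = 0.0907, 0.049 with the replicate block).

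POLB, the polymerase that fills the gap, had signals of 8042, 9413 and 8995 in wild type, 8855, 9578 and 8811 after overexpression and 7505, 7964 and 6434 after knockdown. The knockdown arrays were the 3 lowest for POLB. Its change was log2 -0.27 ± 0.10 against wild type and -0.32 ± 0.10 against overexpression, with limma adjusted p of 0.0854 and 0.0539 that became 0.0168 and 0.008 with the replicate block. APEX1, the endonuclease that cuts at the abasic site, had signals of 22575, 20007 and 20742 in wild type, 22906, 22239 and 21818 after overexpression and 25392, 23429.5 and 23389 after knockdown. The knockdown arrays were the 3 highest for APEX1, at log2 0.19 ± 0.07 against wild type (limma adjusted p = 0.0925, 0.0222 with the replicate block). LIG3, the ligase of short patches and of mitochondria, was at log2 0.30 ± 0.19 with groups that overlapped (limma adjusted p = 0.319, 0.0497 with the replicate block). XRCC1, the scaffold that holds POLB and LIG3, was at log2 0.09 ± 0.15.

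The mismatch repair members and MGMT gave no call. MSH6, which pairs with its partner to recognise base mismatches, had signals of 22729.5, 22131 and 24517 in wild type, 19012, 21879 and 20253 after overexpression and 20889.9, 20027 and 21540.0 after knockdown. Both treated groups lay below wild type in all arrays and overlapped each other, at log2 -0.18 ± 0.08 after overexpression and -0.15 ± 0.08 after knockdown (limma adjusted p = 0.353 and 0.202). MSH3, which recognises loops, was at log2 0.08 ± 0.14 after knockdown. PMS1 and MLH3, partners in the heterodimers that act after recognition, were at -0.13 ± 0.10 and 0.02 ± 0.22. MGMT lay below the filter and was not tested, with signals of 11.8, 8.3 and 27.2 in wild type, 22.7, 17.9 and 9.7 after overexpression and 4.2, 65.5 and 24.7 after knockdown. The 9 values of MGMT overlap between all groups and lie far under the filter's mean signal of about 188.

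In the Fanconi pathway, FANCE was the member of the core complex that passed a test and FAN1 the effector. FANCE, which links the core complex to its substrate, had signals of 1956, 2211 and 1869.6 in wild type, 1804, 1686 and 1654 after overexpression and 2419, 2528 and 2368 after knockdown. The 3 groups did not overlap, with overexpression lowest and knockdown highest. Knockdown was 142% of overexpression (log2 0.51 ± 0.11, limma adjusted p = 0.0103), a call kept without any single array. Against wild type the change of FANCE was log2 0.28 ± 0.11 after knockdown (limma adjusted p = 0.1, 0.0451 with the replicate block) and -0.23 ± 0.11 after overexpression (0.425).

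FAN1, the nuclease recruited to crosslinks by the ubiquitinated Fanconi pair, had signals of 1778, 1666 and 1725 in wild type, 2176, 2078 and 2152 after overexpression and 1483, 1538 and 1361 after knockdown. By this brightest probe set its groups did not overlap either, in the opposite order to FANCE, with overexpression highest and knockdown lowest. Knockdown was 68.3% of overexpression (log2 -0.55 ± 0.10, limma adjusted p = 0.00641), a call kept without any single array. Neither comparison with wild type passed by itself: overexpression was at log2 0.31 ± 0.10 against wild type (limma adjusted p = 0.266) and knockdown at -0.24 ± 0.10 (0.146). The gene's other tested probe set had groups that overlapped in every comparison. It was at log2 -0.01 after overexpression and -0.35 after knockdown, both against wild type. For knockdown against overexpression it was at -0.34 (limma adjusted p = 0.28).

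The other members of the core complex spread to both sides of 0. FANCB, a subunit of the catalytic module, was at log2 0.29 ± 0.12 against wild type. Against overexpression it was at 0.38 ± 0.12 (limma adjusted p = 0.0648, 0.0151 with the replicate block and 0.0462 without overexpression replicate 1). FANCG, an adaptor of the complex, had signals of 6211, 5221 and 5409.6 in wild type and 4524, 4464 and 4585 after knockdown, with every knockdown array lower (log2 -0.31 ± 0.10, limma adjusted p = 0.0533, 0.00846 with the replicate block). FANCF, another adaptor and the dimmest of these, had signals of 227, 289 and 262 in wild type, 255, 273 and 296 after overexpression and 152, 201 and 187 after knockdown. The knockdown arrays were the 3 lowest for FANCF, and the change of log2 -0.53 ± 0.24 missed the threshold (limma adjusted p = 0.161). FANCC, FANCL (the ubiquitin ligase itself) and FANCM (the anchor on chromatin) were at 0.19, 0.08 and 0.05 log2 units against wild type. FANCI, the ubiquitinated substrate, and BRIP1, a helicase, were at -0.13 ± 0.16 and -0.05 ± 0.09.

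Differences were also taken between arrays of the same replicate number. For knockdown against wild type 20 of 44 members (45.5%) had the same sign in all 3 numbers, where 61.8% of all genes did, and for knockdown against overexpression 22 (50%) did, where 60.9% of all genes did. ERCC4 differed from wild type by -0.51, -0.54 and -0.67 log2 units in replicates 1, 2 and 3, and ERCC8 by -0.83, -0.49 and -0.75. FANCG differed by -0.46, -0.23 and -0.24 and POLB by -0.10, -0.24 and -0.48. Of the members that passed, the narrowest range was that of CETN2, and SMUG1, which did not pass, ranged from -0.69 to -0.06. CUL4A, GTF2H3, FANCL and FANCI lay lower in all 3 replicate 1 arrays than in the 6 others, and LIG3 lay higher. This is 11.4% of the tested members, against 11.0% of all genes.

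**Figure D3:**
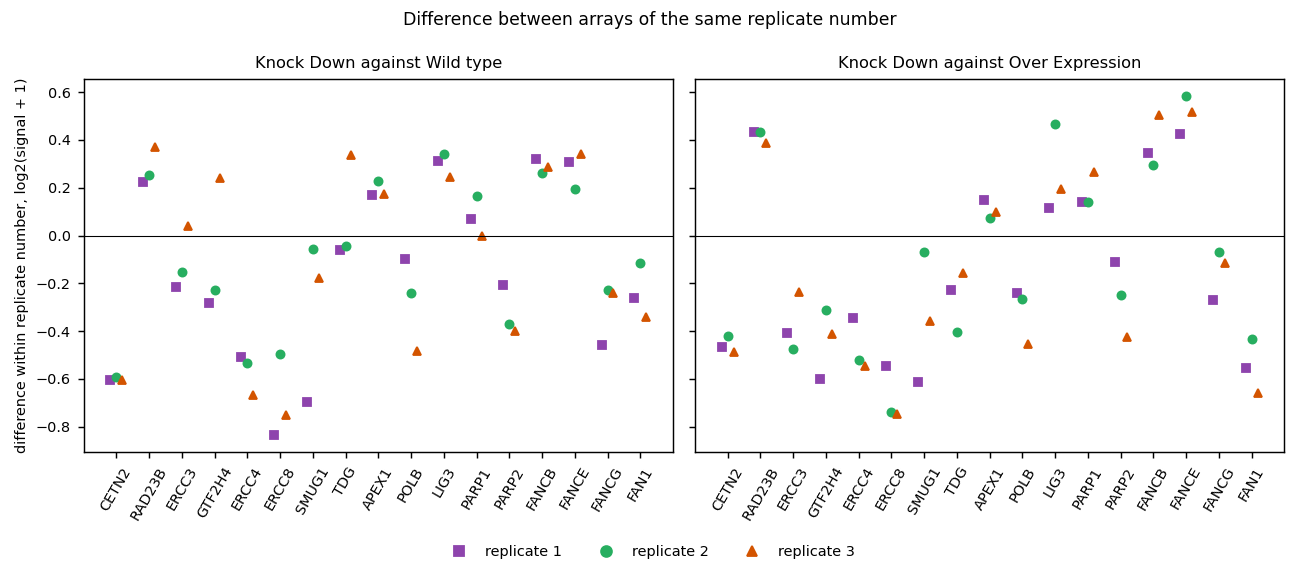
Difference in log2(signal + 1) between the 2 arrays of each replicate number (vertical axis) for 17 members that passed a knockdown test with or without the replicate block (horizontal axis). The 3 points of CETN2 lie together near -0.60 against wild type, those of RAD23B, APEX1, FANCB and FANCE are all above 0 in both panels, and those of SMUG1 spread from -0.69 to -0.06 against wild type.

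Several members are read by more than 1 probe set, and these did not always give the same change. Of the 104 probe sets of the members, 84 passed the filter. For ERCC1, the 2 brighter probe sets were at -0.13 and 0.03 log2 units for knockdown against wild type, while the dimmest fell by 0.87 (limma adjusted p = 0.0246). The dimmest had signals of 999.8 ± 41.5 in wild type, 1136 ± 119 after overexpression and 569 ± 181 after knockdown (SD, n = 3), with the knockdown arrays below all others. It was also lower than after overexpression (log2 -1.05, limma adjusted p = 0.0112). Which transcripts of ERCC1 each probe set reads was not examined.

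For ERCC4 the dimmer of 2 probe sets was at log2 -0.23 against wild type and 0.10 against overexpression, where the brighter was at -0.57 and -0.47. The median over the 2 was -0.18 against overexpression, so the size of that change depends on the probe set. For ERCC8 the second of 3 tested probe sets was at -0.56 and -0.66 and missed the threshold (limma adjusted p = 0.104 and 0.0655). The third, dimmer, was at -0.04 and -0.23 with groups that overlapped. PARP2's other probe sets were at -0.24 and -0.14 against wild type, on the same side as the brightest. RAD23B's second probe set was higher than after overexpression as well (log2 0.33, limma adjusted p = 0.0267), but the third, at 0.16, missed the threshold (0.284). Against wild type these were at log2 0.16 and 0.09 and missed it too (limma adjusted p = 0.24 and 0.533).

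In LIG3 all 5 tested probe sets were above 0 in both knockdown comparisons, and the fourth by signal passed against overexpression (log2 0.69, limma adjusted p = 0.0167). In FANCI the second probe set was lower than after overexpression (log2 -0.34, limma adjusted p = 0.0338). The second probe set of SMUG1 was at 0.04 log2 units against wild type, on the other side of 0 from the brightest. CETN2, FANCE and GTF2H4 have 1 probe set each, so their changes have no such check. Probe sets whose names end in x_at, such as the brightest of PARP2 and of LIG3, can bind transcripts of other genes.

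**Figure D4:**
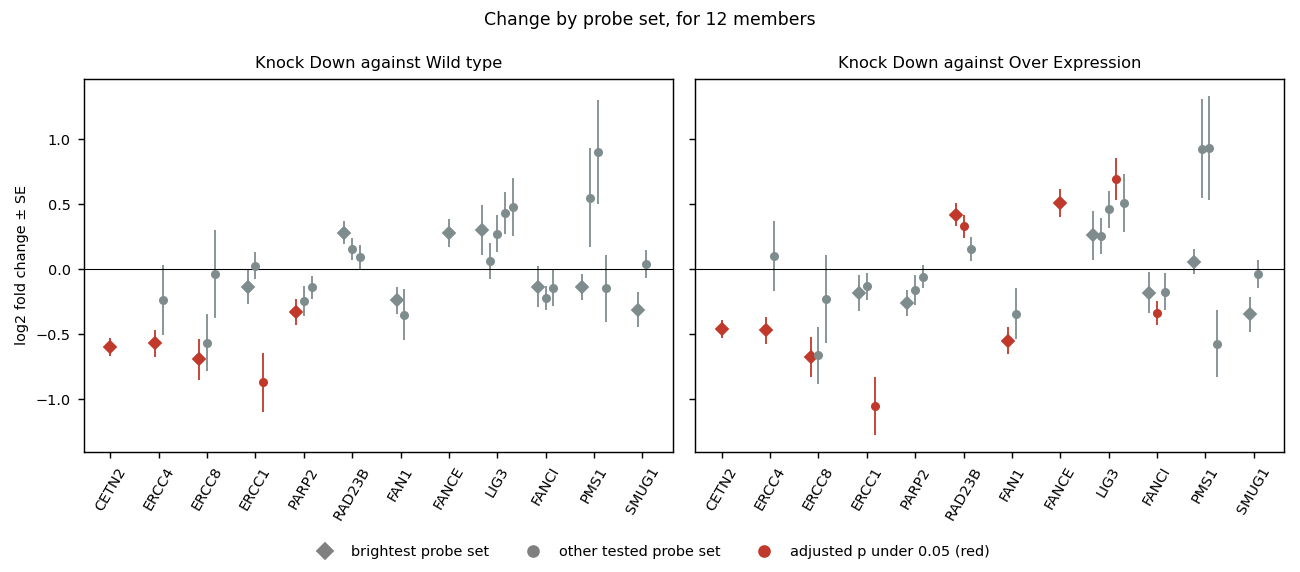
Fitted log2 fold change with its SE (vertical axis) of every tested probe set of 12 members (horizontal axis), for knockdown against wild type (left) and against overexpression (right); diamonds are the brightest probe set of a gene, circles the others, and red marks an adjusted p under 0.05. For ERCC1 the dimmest probe set is red and near -0.87 against wild type while the 2 others are near 0, and for LIG3 all 5 lie above 0.

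The sequences just upstream of 6 members are shown so that the start regions of genes that were lower and of genes that were higher in the knockdown cells can be set side by side. RefSeq (GRCh38.p14) held a promoter window, from 250 bases before to 50 after a start, for 41 of the 45 members. The strand given below is that of the gene, and each sequence reads 5′ to 3′ on it and ends at the base before an annotated start. That of ERCC8 is cut where the neighbouring protein-coding gene begins. Noncoding neighbours were not searched, so any printed stretch may hold part of a noncoding gene. Capitals mark matches on either strand to CCAAT (the NF-Y box), GGGCGG (the SP1 box), or TTTCCCGC or TTTGGCGC (E2F boxes), and matches may overlap. The windows are chrX:152830758-152831007 on the minus strand for CETN2, chr16:13919904-13920153 on the plus strand for ERCC4, chr5:60945071-60945204 on the minus strand for ERCC8, chr14:20343385-20343634 on the plus strand for PARP2, chr9:107283029-107283278 on the plus strand for RAD23B and chr6:35452088-35452337 on the plus strand for FANCE. The first 4 belong to the members that fell after knockdown against wild type, and the last 2 to those that were higher than after overexpression. GTF2H4 and FAN1, which were called lower than after overexpression only, are not shown.
CETN2: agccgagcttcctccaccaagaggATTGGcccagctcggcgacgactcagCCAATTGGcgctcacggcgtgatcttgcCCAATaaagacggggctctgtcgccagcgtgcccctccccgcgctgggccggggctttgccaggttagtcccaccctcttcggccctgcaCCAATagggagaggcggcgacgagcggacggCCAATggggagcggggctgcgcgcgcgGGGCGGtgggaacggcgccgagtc
ERCC4: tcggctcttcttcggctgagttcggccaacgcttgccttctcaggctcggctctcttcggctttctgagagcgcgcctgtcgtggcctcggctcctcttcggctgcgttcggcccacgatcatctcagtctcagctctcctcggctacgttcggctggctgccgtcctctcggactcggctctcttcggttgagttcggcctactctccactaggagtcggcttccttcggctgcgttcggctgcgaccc
ERCC8: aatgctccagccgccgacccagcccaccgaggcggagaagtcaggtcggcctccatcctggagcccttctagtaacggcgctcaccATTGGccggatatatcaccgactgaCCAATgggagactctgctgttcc
PARP2: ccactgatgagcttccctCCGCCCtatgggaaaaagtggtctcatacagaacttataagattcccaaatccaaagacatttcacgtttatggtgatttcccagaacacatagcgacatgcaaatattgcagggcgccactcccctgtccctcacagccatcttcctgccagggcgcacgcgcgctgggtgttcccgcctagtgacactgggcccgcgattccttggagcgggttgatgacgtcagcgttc
RAD23B: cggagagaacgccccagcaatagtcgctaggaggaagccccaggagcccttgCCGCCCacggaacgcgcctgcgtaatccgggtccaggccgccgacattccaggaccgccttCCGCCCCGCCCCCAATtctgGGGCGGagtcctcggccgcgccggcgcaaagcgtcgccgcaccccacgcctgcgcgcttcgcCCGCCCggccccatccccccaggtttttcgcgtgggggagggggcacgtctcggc
FANCE: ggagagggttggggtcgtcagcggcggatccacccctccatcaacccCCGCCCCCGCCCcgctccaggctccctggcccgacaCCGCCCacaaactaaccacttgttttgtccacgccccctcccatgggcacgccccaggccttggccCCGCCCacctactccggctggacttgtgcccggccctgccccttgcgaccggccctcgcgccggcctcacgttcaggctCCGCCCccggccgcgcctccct

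The printed stretch of CETN2 held 6 matches to CCAAT and 1 to GGGCGG, and that of ERCC8 held 2 to CCAAT. The stretch of ERCC4 held no match to any of these motifs, and that of PARP2 held 1, to GGGCGG. RAD23B and FANCE held 5 matches to GGGCGG each, and RAD23B 1 to CCAAT. Over the whole windows, CCAAT was found in 19 of 41 members (46.3%), where 42.1% of 15842 protein-coding genes held it. GGGCGG was found in 32 (78.0%), where 64.3% of those genes held it. The whole window of ERCC8 held GGGCGG, though its printed stretch did not, and that of GTF2H4, which is not printed, held both motifs. TTTCCCGC was found in CUL4A, FANCC and MSH6 (7.32% of members and 2.65% of genes) and TTTGGCGC in MSH3 (2.44% and 1.09%). The NRF1 box, searched the same way, was found in ERCC6 and MLH3 (4.88% and 1.99%) and in none of the printed stretches. A match is a description of letters and says nothing of binding.

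A head-to-head neighbour was a protein-coding gene read the other way from a start within 1000 bases, and noncoding genes were not searched. Such a neighbour was annotated for 11 of the 41 members (26.8%), where 12.3% of the protein-coding genes had one. They include CETN2 with NSDHL (306 bases between starts), ERCC8 with NDUFAF2 (135), APEX1 with OSGEP (414), DDB1 with TKFC (123), GTF2H1 with HPS5 (427) and GTF2H3 with EIF2B1 (143). NSDHL, an enzyme of cholesterol synthesis, was at log2 -0.25 ± 0.11 after knockdown (limma adjusted p = 0.15), where CETN2 fell by 0.60. NDUFAF2, an assembly factor of mitochondrial complex I, was at -0.21 ± 0.09 (0.139, 0.0432 with the replicate block), where ERCC8 fell by 0.69. OSGEP, an enzyme of tRNA modification, fell by 0.51 (limma adjusted p = 0.00895), where APEX1 was at 0.19 and its knockdown arrays were the highest of the 9. HPS5 also fell after knockdown (log2 -0.36, limma adjusted p = 0.0375, a call kept in 1 of 6 fits that left out an array, with p up to 0.137), where GTF2H1 was at -0.04. In all, 2 of 11 neighbours passed against wild type (18.2%, against 19.4% of all genes), OSGEP and HPS5. Against overexpression 3 of 11 passed (27.3%, against 18.4% of all genes), OSGEP and EIF2B1 lower and TKFC higher.

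Other genes of the same pathways give the setting. From a list of 50 that are no members, 40 were found on the array and 39 passed the filter. In knockdown against wild type 7 of the 39 passed (17.9%, against the 19.4% of all genes), 4 higher and 3 lower, and against overexpression 9 passed (23.1%, against 18.4%), 6 higher and 3 lower. After overexpression 0 of 39 passed the limma test, and 6 had an unadjusted p under 0.05, where 14% of all genes did. With the replicate block 16 passed against wild type (41.0%, against 33.4% of all genes) and 14 against overexpression (35.9%, against 32.6%). Without the block, the 9 against overexpression became 5 without overexpression replicate 3 and 4 without knockdown replicate 3. The 6 genes named next kept their call against wild type without any single array. EME2, a partner of the MUS81 nuclease, rose from 972 ± 60.2 in wild type to 2610.4 ± 122 after knockdown (SD, n = 3; log2 1.43 ± 0.11, limma adjusted p = 0.000107). CENPX, a histone-fold protein that works with FANCM, rose by log2 0.78 ± 0.08 (0.000204), and DDB2, the ultraviolet sensor bound by DDB1 and a known target of p53, by 0.92 ± 0.13 (0.00122). POLH, a polymerase that copies past lesions, rose by 0.61 ± 0.13 (0.00932). POLH has 6 tested probe sets and EME2 has 3, and only the brightest of each was examined here. ALKBH3, which removes alkyl groups from bases, fell (log2 -0.93 ± 0.17, 0.00462), and so did MAD2L2, a subunit of polymerase zeta (log2 -0.42 ± 0.08, 0.00752). Among the members the change furthest from 0 was the -0.69 of ERCC8. Of the 19 S phase genes, 4 rose (RRM2, SLBP, UHRF1 and CDT1) and 1 fell (MCM6) against wild type (26.3%, against 19.4% of all genes). Against overexpression RRM2 and SLBP were higher and E2F1 lower (15.8%, against 18.4% of all genes).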

How the data were processed

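The deposited values are the authors' intensity signals on a linear scale, 1 for each of 54675 probe sets on each of 9 arrays, which the submitters' processing notes credit to MAS5. The version and settings of MAS5 were not given in the sources used here. Every array had a 2% trimmed mean of 1500.2 in the deposited table, which hides any change in the total RNA of a cell. MAS5 treats each array alone, and dim probe sets vary more.

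Signals were transformed to log2(signal + 1), 62 control probe sets were left out, and the 27307 probe sets with a mean log2 signal at or above the median (7.56) were tested. Groups, taken from the sample titles, were compared two-sided in limma (version 3.58.1, R version 4.3.3) by lmFit and a trended eBayes. A single fit held all 9 arrays and had 6 residual degrees of freedom, and p-values were adjusted by Benjamini-Hochberg over every tested probe set. Fold changes and the percent of another group's level are on the log2(signal + 1) scale, and each ± beside a fold change is its SE over 3 against 3 arrays. The fit was also run on simulated data with independent noise between arrays and no replicate effect. That run says nothing of deviations that arrays of the same replicate number share. The number of arrays limits the precision.

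The platform's annotation gave the gene names: 41097 had 1 symbol, 1801 several and 11777 none, and 41037 of the first matched a gene of RefSeq GRCh38.p14 by Entrez ID, with 0 symbols updated. Members that passed a test, and some that did not, are given in every array. The others are given by range and counts with the largest change of each role group, and the 6 other repair genes are those of smallest p that passed. Probe sets other than the brightest, and the head-to-head neighbours, were chosen for mention after their values were seen. The members and the lists were chosen with earlier results of these data known.

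No 2 arrays were identical, and within-group correlations of log2 signal over all probe sets ran from 0.925 to 0.935. The replicate 1 arrays were treated as a possible batch. The pairing by replicate number comes from the titles, and the correlations in the report met the bound of 0.1 for both knockdown comparisons. For overexpression and wild type they ran from 0.083 to 0.447, which did not. Alternatives tried were a pseudocount of 16, no filter, a stricter filter, quantile normalization, no trend, the replicate block, a term for replicate 1, the 2 groups alone, each array left out in turn, the median over a gene's probe sets and, chosen after seeing the data, replicates 2 and 3 alone. Figures were drawn with matplotlib 3.10.9.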

Additional observations from a re-analysis of the deposited data

How the results depend on the processing

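The count of members called after overexpression was 0 in every setting except the replicate block and the term for replicate 1, where it was 1 (TDG) in each. In that comparison the replicate numbers did not meet the bound for pairing. The count for knockdown against wild type, 4 as reported, was 10 with the replicate block and 11 under the replicate 1 term, and the count for knockdown against overexpression, 7 as reported, was 14 and 15. The cause was not tested. With each array left out in turn the counts ran from 2 to 4 (2 without knockdown replicate 2 or replicate 3) and from 4 to 7 (4 without overexpression replicate 3 or knockdown replicate 2), and after overexpression they stayed at 0. In the 6 arrays of replicates 2 and 3 alone, a setting chosen after seeing the data, they were 0, 6 and 10. With the other settings they ran from 3 to 6 for knockdown against wild type and from 6 to 8 against overexpression. For 13 changes that were called as reported, those of KAT8 among them, 171 of 195 refits kept the call and 24 lost it. These 13 were picked because they were called, and the refits share arrays, so this count is no rate of robustness. The 15 that were not called were members' changes picked because the replicate block called them, and KAT8 after overexpression. Their calls with the block were thus known beforehand, and their refits give no rate of robustness. Of their 225 refits 42 gave a call, among them 15 with the block and 15 with the replicate 1 term. The sign changed in 0 of these. Medians over a gene's probe sets, which have no test, moved by more than the SE for 7 of 14 changes. Among the members the replicate block changed no other call than those given. For KAT8 after overexpression it gave a limma adjusted p of 0.0381. MGMT and other members' probe sets under the filter were not tested, and background levels and detection calls were not used here.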
